A study of Mus musculus with 8 samples.

Results

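A set of 10 genes of iron handling, out of 16650 genes with a value in the table, was followed in mouse livers: the hepcidin genes Hamp and Hamp2, the plasma carrier Trf, its receptors Tfrc and Tfr2, the ferritin subunits Fth1 and Ftl1, the exporter Slc40a1, the receptor partner Hfe and the signal Bmp6. They were taken by gene symbol, and all 10 were found. The study deleted Mfsd2a, a carrier of lysophospholipids, from the liver and asked how such livers respond to overnutrition. Bulk RNA-seq was done on livers of 10-week-old mice, 4 labelled 2afl/fl and 4 labelled L2aKO. Both groups carried floxed Mfsd2a alleles. The L2aKO line also carried Alb-Cre, whose albumin promoter is active in hepatocytes. The study reports efficient deletion in hepatocytes, and whether other cells of the liver keep the gene was not tested here. All mice ate a NASH diet, rich in fat and paired with fructose water, over 2 weeks. By the study's methods the mice were male unless stated otherwise, were sampled at ZT4 and were perfused with buffered saline before the liver was frozen. The strain is not given in the sources used here.

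Iron leaves cells through ferroportin, the product of Slc40a1, and travels in plasma bound to transferrin. The hepatocyte sets the outflow by secreting hepcidin, which binds ferroportin and has it degraded, and it makes more hepcidin when BMP6 from sinusoidal endothelial cells or interleukin-6 signals to it. Inside cells, iron regulatory proteins bind hairpins in the mRNA: a hairpin before the coding sequence holds back translation of ferritin and ferroportin, and hairpins after it protect the transferrin receptor mRNA from decay. Translation and protein level are therefore not visible in these values.

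The promoters of the hepcidin genes are shown first because they differ at a site known for the BMP response. Both genes lie on the minus strand of chromosome 7, and the 160 bases before each start site were taken from RefSeq (GRCm38.p6) and are written 5′ to 3′ on the strand of the gene. Capitals mark GGCGCC, the core of the BMP-responsive element described in the hepcidin promoter, and TTCTTGGAA, which has the form TTCNNNGAA bound by STAT factors.
Hamp, chr7:30944030-30944189: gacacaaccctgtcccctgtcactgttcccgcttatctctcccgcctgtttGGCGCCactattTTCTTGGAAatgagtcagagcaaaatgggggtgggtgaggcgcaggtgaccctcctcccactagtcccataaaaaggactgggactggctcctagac
Hamp2, chr7:30924182-30924341: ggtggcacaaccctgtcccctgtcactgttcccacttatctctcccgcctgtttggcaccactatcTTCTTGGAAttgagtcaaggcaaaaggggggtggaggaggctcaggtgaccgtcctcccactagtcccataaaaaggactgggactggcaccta
The windows were identical at 144 of 163 aligned columns (88.3%), with 13 substitutions and 6 gap columns. GGCGCC lay 109 to 104 bases before the Hamp start and was not found in the Hamp2 window, where the substitution G55A, counted from 1 at the first printed base of Hamp, falls inside it. TTCTTGGAA was found in both, 97 to 89 bases before the start of Hamp and 94 to 86 bases before that of Hamp2. Among 32851 promoter windows of RefSeq (250 bases before to 50 after the start), searched on both strands, GGCGCC was in 11.9%, TTCTTGGAA in 0.417% and TTCNNNGAA in 8.30%. A match of letters is a description of the window, not a measurement of binding.

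The hairpins on which iron regulatory proteins act are shown next, because they separate the members by the kind of control their mRNAs are known for. The search asked for a C, 5 further bases, the loop CAGTGN and then 5 bases that pair with those before the loop, in GENCODE M21 transcripts (GRCm38), with the loop in capitals.
Fth1, chr19:9982733-9982759 (plus strand, exon 1, 5′ UTR): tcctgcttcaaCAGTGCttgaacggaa
Ftl1, chr7:45459780-45459806 (minus strand, exon 1, 5′ UTR): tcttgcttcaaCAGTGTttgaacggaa
Slc40a1, chr1:45925466-45925492 (minus strand, exon 1, 5′ UTR): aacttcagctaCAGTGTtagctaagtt
Tfrc, chr16:32631220-32631246 (plus strand, exon 19, 3′ UTR): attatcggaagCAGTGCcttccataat
Tfrc, chr16:32631599-32631625: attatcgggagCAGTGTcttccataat
Tfrc, chr16:32631664-32631690: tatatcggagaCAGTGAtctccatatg
Tfrc, chr16:32631711-32631737: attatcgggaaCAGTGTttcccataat
The 4 Tfrc sites share exon 19. The motif was found in 4 of the 10 members and in 294 of 21901 protein-coding genes (1.34%). The known function of these sites differs by position: before the coding sequence in Fth1, Ftl1 and Slc40a1, after it in Tfrc.

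Values are read numbers that the authors divided by a size factor per library, and they are written below in the order of the replicate numbers. The libraries held an estimated 27.5 M to 37.2 M reads, and no pair of libraries came close to being one library deposited again (highest correlation of log2 values 0.986). The labels give only a replicate number, and the study's methods call its samples biological replicates, so p-values are over 8 livers. Mfsd2a itself was measured at 467, 1569, 300 and 513 in the 2afl/fl livers and at 915, 721, 1422 and 1974 in the livers labelled L2aKO. It was therefore not lower under that label (log2 fold change 1.01 ± 0.59 SE, exact permutation p = 0.171), and the genotype of the libraries was not visible from the gene's total. Its call depended on the livers and on the method. Without 2afl/fl replicate 2 the log2 fold change was 1.49 and Mfsd2a passed the call rule given below as higher in L2aKO. With each other liver left out it was not called. With all livers used, voom, another form of the limma fit, called it (1.01). In the study, an immunoblot showed no Mfsd2a protein in L2aKO liver, which is a measure of protein and not of these libraries. Where reads on a deleted exon fall was not tested, since the table has 1 value a gene, and every direction below follows the labels.

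None of the 10 iron genes was called between the genotypes. A call needed an unadjusted p under 0.05 in limma, fitted across all genes, and a log2 fold change of at least 0.32 in size, which are the limits of the study's methods, and 2.10% of all 16650 genes met both (1.32% higher and 0.781% lower in L2aKO). These were 219 genes higher and 130 lower, which became 167 and 169 under quantile normalization. The lower count was 84 without 2afl/fl replicate 3 and 191 without L2aKO replicate 2. No member had an unadjusted p under 0.05, against 3.49% of all genes, and none had genotypes that did not overlap, against 2.25%. After Benjamini-Hochberg adjustment over all genes no gene in the table had an adjusted p under 0.05 in limma, while 581 had an unadjusted p under 0.05, and the adjusted p of each member was 0.9997. Beside a single gene the text gives the exact two-sided permutation test over the 70 assignments of labels, for which the smallest p is 0.0286. The estimate was positive for 8 members and negative for 2, with a median log2 fold change of 0.061 beside 0.00034 over all genes. What the data set is how large a difference could have been: for Trf, Tfr2, Fth1 and Ftl1 the 95% interval lay within 0.32 on the log2 scale either way, as it did for 43.1% of all genes, and for the other 6 it did not.

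**Figure D1:**
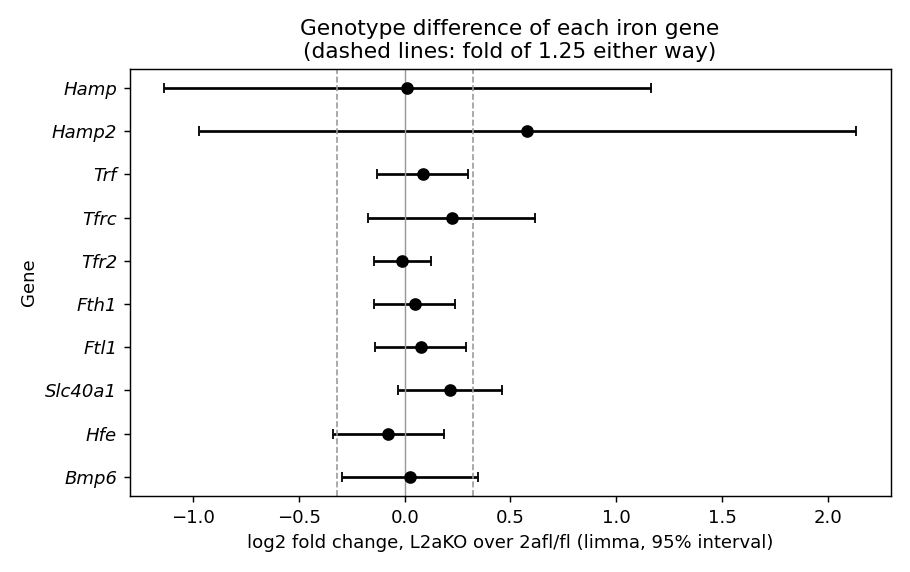
Log2 fold change of each iron gene, L2aKO over 2afl/fl (horizontal axis), with the 95% interval from limma over 4 livers a genotype; dashed lines mark the fold limit of the call rule, 0.32 either way. Tfr2 has the narrowest interval, 0.903 to 1.09 as a fold, and Hamp2 the widest, 0.510 to 4.39.

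Hamp, which encodes the hormone hepcidin, lies at chr7:30942369-30944030 in mm10 (the stop in these files is 1 base past the last base). Its values were 5336, 4604, 14036 and 12502 in the 2afl/fl livers and 9928, 4847, 10377 and 8954 in the L2aKO livers. The 2afl/fl livers formed a low and a high pair, and 3 of the 4 L2aKO livers fell in the gap between them. The means were 9119 ± 4841 and 8527 ± 2524 (SD, n = 4 each). The fold was 1.01 with a 95% interval of 0.455 to 2.24 (limma), and the exact permutation test gave p = 1. These livers leave any fold within that interval possible. Over all 8 livers Hamp spanned 3.05-fold, and its spread within genotypes was at the 99.0 percentile of the 10588 genes with a mean of at least 100.

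Hamp2, the copy next to Hamp that mice carry and humans lack, lies at chr7:30922372-30924182. In mice its forced expression did not bring about the anaemia that Hamp does. It was measured at 208, 466, 227 and 169 in the 2afl/fl livers and at 721, 142, 714 and 255 in the L2aKO livers. L2aKO replicates 1 and 3 were the highest of the 8 and replicate 2 the lowest, so the L2aKO livers enclosed the whole 2afl/fl range. The estimate was a fold of 1.495 with an interval of 0.510 to 4.39 (limma; exact permutation p = 0.371). Its spread within genotypes stood at the 99.5 percentile and its values spanned 5.06-fold.

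The 2 hepcidin genes did not follow each other from liver to liver. Their ratio, Hamp over Hamp2, was 25.6, 9.87, 61.8 and 74.1 in the 2afl/fl livers and 13.8, 34.0, 14.5 and 35.2 in the L2aKO livers. Pearson's r of the log2 values over the 8 livers was 0.132 (exact permutation p = 0.722) and Spearman's rho was 0.0714 (p = 0.882). Without 2afl/fl replicate 2 and L2aKO replicate 2, the livers farthest from the median of Hamp, r was 0.0539. How reads that match both near-identical genes were counted is not given in the sources used here, so the split between them is uncertain. The sum of both, dominated by Hamp, differed by 0.024 on the log2 scale (exact permutation p = 1).

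**Figure D2:**
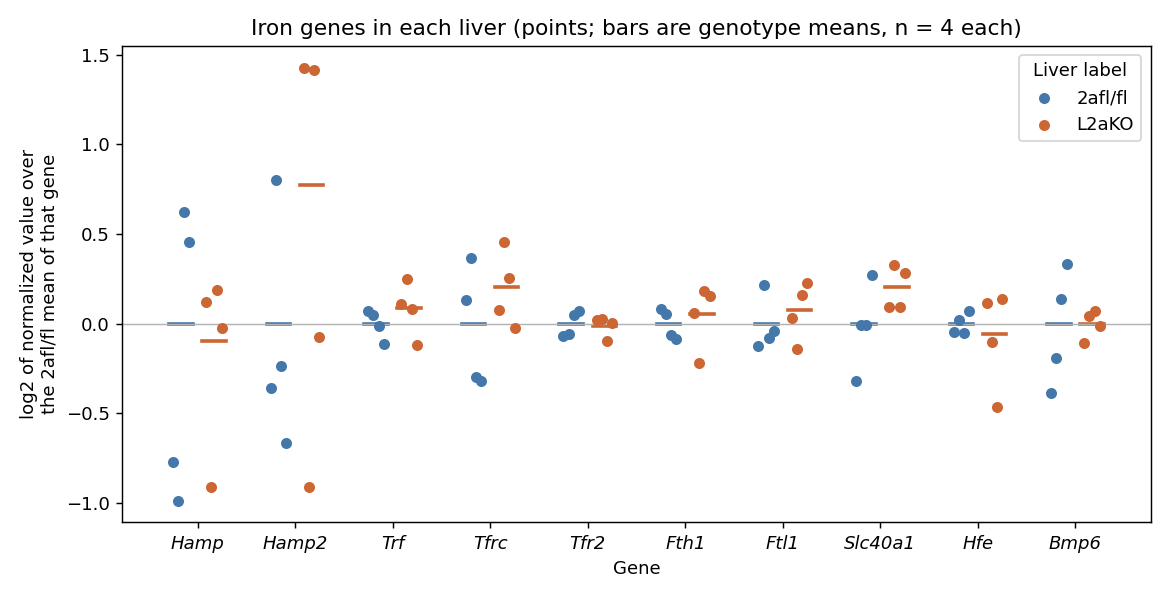
Each point is 1 liver, drawn as the log2 of its normalized value over the 2afl/fl mean of that gene (vertical axis), with 4 livers a genotype and bars at the genotype means. Hamp and Hamp2 scatter widest, and the points of both genotypes overlap for all 10 genes.

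Bmp6, the ligand through which the endothelium reports iron stores to the hepatocyte, was the lowest of the members per length. The 2afl/fl livers gave 126, 144, 180 and 207 and the L2aKO livers 153, 170, 172 and 163, so the 4 L2aKO values lay inside the 2afl/fl range. The fold was 1.02 (0.814 to 1.27, exact permutation p = 0.914). Its gene, on the plus strand of chromosome 13 (38345716 to 38500315), overlaps the end of Txndc5 and 4930579J19Rik on the other strand, and whether counting used strand is not given in the sources used here, so part of its reads could belong to them. Hfe, which encodes an MHC class I-like protein whose loss causes hereditary haemochromatosis in humans, had values of 1422, 1489, 1415 and 1538 in 2afl/fl and 1590, 1367, 1063 and 1614 in L2aKO. L2aKO replicate 3 was the lowest liver, and the fold was 0.948 (0.790 to 1.14, exact permutation p = 0.771). Tfr2, the receptor by which hepatocytes sense transferrin iron, was the steadiest member, at 12068, 12149, 13109 and 13298 in 2afl/fl and 12817, 12867, 11830 and 12684 in L2aKO. Its highest value was 1.12 times its lowest and its spread lay at the 12.2 percentile. The fold of Tfr2 was 0.992 (0.903 to 1.09, exact permutation p = 0.886).

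Trf, the gene of transferrin, was the fifth highest of all genes by mean value, not divided by length, and took up 1.24 to 1.60% of each library's total. Its values were 429870, 422765, 406108 and 378660 in 2afl/fl livers and 442678, 487393, 433574 and 377660 in L2aKO livers. The lowest and the highest liver were both L2aKO, replicates 4 and 2. The fold was 1.06 (0.913 to 1.23, exact permutation p = 0.343). Tfrc, the receptor that brings transferrin into most cells, was measured at 883, 1040, 656 and 645 in 2afl/fl and 851, 1104, 963 and 794 in L2aKO. The genotypes overlapped, with 2afl/fl replicates 3 and 4 below all the other livers. Its fold was 1.17 (0.886 to 1.53, exact permutation p = 0.314), and its spread stood at the 91.3 percentile. Without 2afl/fl replicate 2, Tfrc passed the call rule in limma (log2 fold change 0.35), the only member and the only omission for which that happened. The exact permutation test of the same 7 livers gave p = 0.171.

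The ferritin subunits form the shell in which iron is stored, the heavy chain, from Fth1, oxidizing iron as it enters. Fth1 was at 11902, 11671, 10768 and 10564 in 2afl/fl livers and at 11707, 9654, 12744 and 12476 in L2aKO livers. L2aKO held both the lowest liver, replicate 2, and the highest, replicate 3. The fold was 1.03 (0.905 to 1.18, exact permutation p = 0.743). Ftl1, the light chain, was at 39880, 50480, 41068 and 42185 in 2afl/fl and at 44309, 39391, 48421 and 50863 in L2aKO, a fold of 1.05 (0.908 to 1.22, exact permutation p = 0.514). L2aKO replicate 2 was lowest for both chains. The value of Ftl1 was 3.35 to 4.33 times that of Fth1 within a liver, not divided by length. Across the 8 livers the chains gave r = 0.711 (exact permutation p = 0.0495, adjusted p = 0.235 over 8 relations) and rho = 0.595 (p = 0.132). Without 2afl/fl replicate 4 and L2aKO replicate 2, r fell to 0.584, so the relation rested in part on those livers.

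Slc40a1, which encodes ferroportin, the iron exporter, had the smallest p of the members in both tests. Its values were 4471, 5556, 5559 and 6742 in 2afl/fl livers and 5948, 6999, 5966 and 6784 in L2aKO livers. Each L2aKO liver was above 3 of the 4 2afl/fl livers, and 2afl/fl replicate 4 lay among the L2aKO livers. The means were 5582 ± 928 and 6424 ± 546 (SD, n = 4 each), a fold of 1.16 (0.977 to 1.38, exact permutation p = 0.143). The log2 difference of 0.21 depended on the livers used: it was 0.11 without 2afl/fl replicate 1, the lowest liver, and 0.31 without 2afl/fl replicate 4, the highest of its group, and it stayed under the fold limit with any 1 liver left out. Macrophages that take up old red cells carry much of the liver's ferroportin. Beside this estimate, 10 of 10 Kupffer cell markers and 10 of 10 markers of recruited macrophages had a positive difference, none of them past the call rule, and the summed Kupffer level was 8261 to 10482 in 2afl/fl and 9541 to 11975 in L2aKO. The sum for recruited macrophages was 1885 to 2367 and 2143 to 2646. Lyz2, Spp1 and Cd9 made up most of it (2afl/fl means 845, 673 and 453), and Spp1 also stands among the bile duct markers. Others were low, such as Trem2 (10.9) and Gpnmb (9.7). The hepatocyte sum also ranged higher in L2aKO, at 1572923 to 1872317 in 2afl/fl and 1802139 to 1990606 in L2aKO. The stellate cell sum (12984 to 15566 and 13155 to 15146) and the bile duct sum (921 to 1221 and 906 to 1028) did not. Of the hepatocyte markers 5 of 7 had a positive difference, as did 8343 of all 16650 genes. Alb made up most of the hepatocyte sum (mean 1155405 in 2afl/fl and 1350125 in L2aKO, log2 fold change 0.23). Ttr, Cps1, Apoa1 and Serpina1a lay between 0.069 and 0.096, and Hnf4a (-0.040) and Tat (-0.10) were negative. No Kupffer or recruited macrophage marker had a mean under 1, and the part of these cells in the Slc40a1 values was not tested. In bulk RNA, a change in the number of cells of a type and a change in RNA per cell cannot be told apart.

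Levels can be set against each other only per length. Per kilobase of the transcript with the longest coding sequence, the order was Trf, Ftl1, Hamp, Fth1, Tfr2, Slc40a1, Hamp2, Hfe, Tfrc and Bmp6 in both genotypes. The 2afl/fl mean normalized value per kilobase was 159218 ± 8851 for Trf, 44838 ± 4970 for Ftl1 and 22243 ± 11808 for Hamp (SD, n = 4). It was 165 ± 39.0 for Tfrc and 45.7 ± 10.2 for Bmp6. Hamp ranged from 11228 to 34234 per kilobase over the 8 livers and overlapped Fth1 below it, at 10392 to 13718, but not Ftl1 above it, at 40693 to 52545. Hamp2, at 326 to 1649, overlapped both of its neighbours, Slc40a1 at 1327 to 2077 and Hfe at 297 to 452. The remaining neighbours in the order did not overlap. The hepatocyte receptor Tfr2, at 4043 to 4545, thus stood well above Tfrc, at 132 to 226, in every liver.

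Relations were also read across the 8 livers, 8 of them in one family. Hamp was paired with Hamp2, the ligand gene Bmp6, the BMP targets Id1 and Smad7 and the cytokine target Socs3. The other 3 pairs were without Hamp. Hamp with Bmp6 gave r = 0.685 (exact permutation p = 0.0587) and rho = 0.762 (p = 0.0368), with an adjusted p of 0.235. Without the livers farthest from the median of Hamp, 2afl/fl replicate 2 and L2aKO replicate 2, r was 0.900. Id1, a direct target of BMP signals, was at 54.2, 85.2, 236 and 203 in 2afl/fl and at 133, 144, 221 and 62.2 in L2aKO. The 2afl/fl livers with high Hamp were those with high Id1, while L2aKO replicate 4 joined a middle Hamp value to a low Id1 value. Hamp with Id1 gave r = 0.641 (exact permutation p = 0.0915) and rho = 0.714 (p = 0.0576), and r was 0.861 without the same livers. With Smad7, a BMP target that damps the signal, r was 0.548 (exact permutation p = 0.163), rho 0.619 (p = 0.115) and r 0.718 without them. With Socs3, a target of interleukin-6 signals, r was -0.032 (exact permutation p = 0.935) and rho 0.119 (p = 0.793), and r was -0.80 without them. None of the 8 relations had an adjusted p under 0.05. Values centred on each genotype gave r = 0.685 for Bmp6, 0.641 for Id1 and 0.571 for Smad7.

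Hamp and Tfrc moved in opposite directions from liver to liver, a pair picked from all 45 pairs of members after the values were seen. The 3 livers lowest in Hamp, 2afl/fl replicates 1 and 2 and L2aKO replicate 2, had Tfrc values of 883, 1040 and 1104. The 2 livers highest in Hamp, 2afl/fl replicates 3 and 4, had 656 and 645. Pearson's r was -0.82 (exact permutation p = 0.0156) and rho -0.79 (p = 0.0279), with an adjusted p of 0.408 over the 45 pairs. It was -0.91 with values centred on each genotype, -0.63 without the livers farthest from the median of Hamp, and between -0.93 and -0.76 with each liver left out in turn. Of the 45 pairs 4 had an unadjusted p under 0.05 and none an adjusted one. The others were Trf with Tfrc (r = 0.769, exact permutation p = 0.0264, rho = 0.714, 0.762 without the farthest livers), Slc40a1 with Bmp6 (r = 0.724, exact permutation p = 0.0431, rho = 0.524, 0.474 without them) and Fth1 with Ftl1, given above. Tfrc with Fth1 gave r = 0.0506 (exact permutation p = 0.906) and rho = 0.0238 (p = 0.977). Iron regulatory proteins act on them in opposite ways, but on Fth1 through translation, which these values do not show. Slc40a1 with Hmox1, the enzyme that frees iron from haem, gave r = -0.24 (exact permutation p = 0.574) and rho = -0.0238 (p = 0.977).

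**Figure D3:**
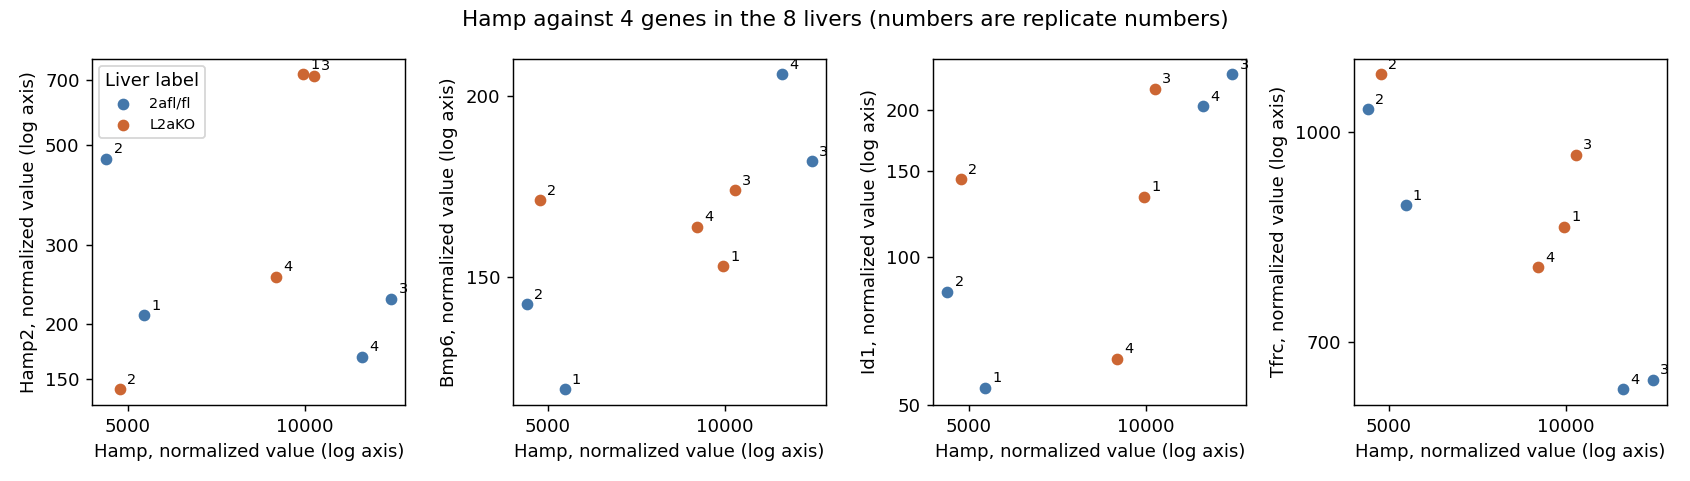
Hamp (horizontal, normalized value, log axis) against Hamp2, Bmp6, Id1 and Tfrc (vertical, normalized value, log axes) in the 8 livers, with replicate numbers beside the points. Hamp2 shows no order with Hamp (r = 0.132), Bmp6 and Id1 lie higher where Hamp is higher (r = 0.685 and 0.641), and Tfrc lies lower (r = -0.82); none of these has an adjusted p under 0.05.

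By pattern over the 8 livers, with 14202 other genes searched and no test, the genes most like Hamp were Zxdb (r = 0.970), Rexo1 (0.966), Kri1 (0.948), Tnip1 (0.934) and Rps14 (0.930). Those most like Tfrc were Gjd3 and Heg1 (0.940 each), Ms4a6c (0.918), Ostf1 (0.917) and Spp2 (0.912). With so many genes and so few livers, high values of r turn up in any such search.

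Of 80 other genes of iron handling in 5 lists, 78 were in the table. One of them, Flvcr2, was called, 2 had an unadjusted p under 0.05 (Flvcr2 and Bmp2) and 3 had genotypes that did not overlap (Il6st, Alas1 and Flvcr2, all higher in L2aKO). Over all genes these shares were 2.10%, 3.49% and 2.25%, so the lists did not hold more called genes or more genes of low p than the table at large. The 3 of 78 without overlap were a larger share than over all genes, but too few to draw a conclusion from. The median log2 fold change was 0.0086, with 41 positive and 37 negative. In the BMP-SMAD list 0 of 21 were called. Its smallest limma p was that of Bmp2, an endothelial ligand that also raises hepcidin, which had a log2 fold change of 0.19 ± 0.084 SE (exact permutation p = 0.114), followed by Smad6, an inhibitor of the pathway, at 0.082 ± 0.090. The hemojuvelin gene Hjv, a co-receptor for BMP6, and Tmprss6, the protease that cleaves hemojuvelin, gave -0.086 and -0.0040 (named for their place in the pathway). The summed level of endothelial markers, 7 of 8 with a positive difference, was 12513 to 14275 in 2afl/fl and 14207 to 15435 in L2aKO beside the Bmp2 values. The hepatocyte sum given above, most of it Alb, also ranged higher in L2aKO, and the part of endothelial cells in the Bmp2 values was not tested.

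In the cytokine list 0 of 13 were called. Il6st, the shared signalling receptor of the interleukin-6 family, was at 7813, 8137, 8234 and 8656 in 2afl/fl and 8971, 8715, 9467 and 8730 in L2aKO. The lowest L2aKO liver stood just above the highest 2afl/fl liver, and the log2 fold change was 0.13 ± 0.059 SE (exact permutation p = 0.0286, the smallest possible). Il22ra1, a receptor chain for interleukin-22, gave -0.30 ± 0.19, which was -0.13 without L2aKO replicate 4 and passed the call rule without L2aKO replicate 3 (-0.41). Among genes of iron uptake, reduction and oxidation 0 of 13 were called. Slc39a14, a carrier for iron not bound to transferrin, gave 0.16 ± 0.078 SE (exact permutation p = 0.143), and Lcn2, a siderophore-binding protein of the acute phase, 0.66 ± 0.34 (exact permutation p = 0.257). Lcn2 passed the call rule without L2aKO replicate 2 (0.89) and was at 0.41 without 2afl/fl replicate 2. In the list for iron sensing and ferritin turnover 0 of 10 were called, 2 estimates were positive and 8 negative, and all lay between -0.086 and 0.017. Iscu, a scaffold for iron-sulfur clusters, and Pcbp1, an iron chaperone to ferritin, had the smallest limma p there, at -0.086 ± 0.070 and -0.048 ± 0.054 on the log2 scale.

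Of 21 genes of haem handling 1 was called. Flvcr2, a membrane carrier described for haem and for choline, was at 122, 151, 103 and 155 in the 2afl/fl livers and at 179, 164, 178 and 258 in the L2aKO livers. Each L2aKO liver was above each 2afl/fl liver, with replicate 4 the highest. The fold was 1.46 (1.13 to 1.88, exact permutation p = 0.0286, limma adjusted p = 0.9997), and it passed the call rule with any 1 liver left out. Alas1, the first enzyme of haem synthesis in the liver, was looked at after its values were seen. It was at 1829, 1800, 1211 and 2138 in 2afl/fl and at 3108, 2173, 2781 and 13634 in L2aKO. The genotypes did not overlap, but the gap between the nearest livers was small and L2aKO replicate 4 stood far above the rest. Its log2 fold change was 1.23 ± 0.61 SE and missed the call rule in limma, while the exact permutation p was 0.0286, as for any gene without overlap. Without L2aKO replicate 4 it was 0.64 and passed the rule. Of 7 erythroid markers measured, 3 were called higher, against 1.32% of all genes. They were the globin genes Hba-a1, Hba-a2 and Hbb-bs, at 0.59, 0.47 and 0.53 on the log2 scale. The spans given for Hba-a1 and Hba-a2 nearly coincide (chr11:32283672-32297304 and chr11:32283675-32297311). How reads that match both were counted is not given in the sources used here, so their calls may not be separate. Hba-a1 was at 302 to 407 in 2afl/fl and 443 to 595 in L2aKO, without overlap. Among those not called, Hbb-bt was at 0.63, Slc4a1 at -0.016 and Alas2, the erythroid form of the enzyme, at -0.097. The summed erythroid level overlapped, at 3780 to 5428 in 2afl/fl and 4370 to 5557 in L2aKO, and Alas2 made up most of it (mean 3806 in 2afl/fl and 3524 in L2aKO). The part of red cells in the haem genes was not tested. The hepatocyte markers had 0 of 7 called.

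**Figure D4:**
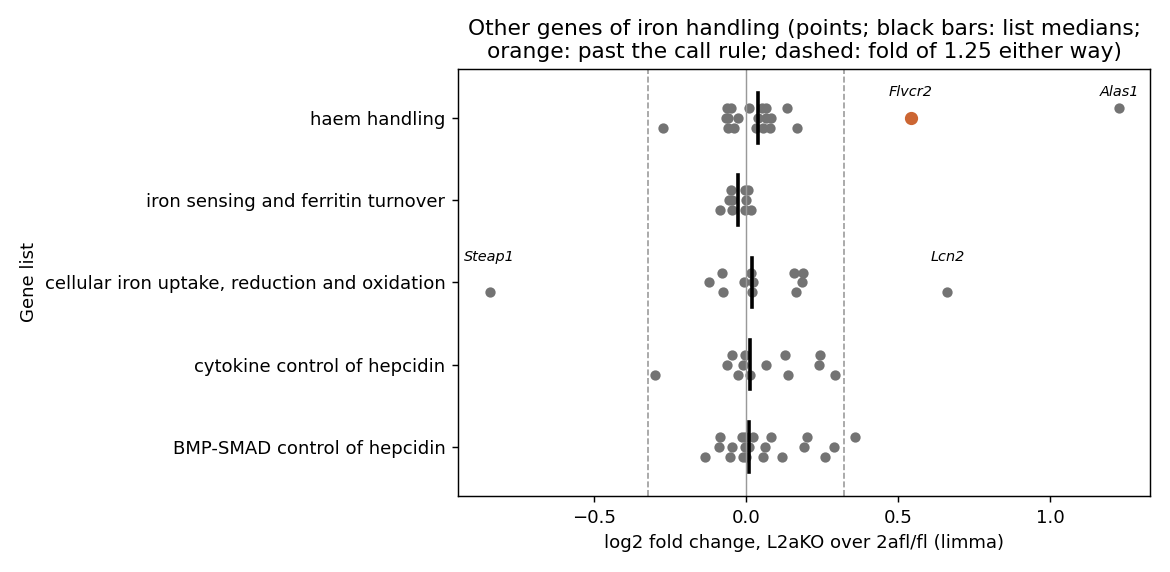
Log2 fold change of the 78 other iron genes, L2aKO over 2afl/fl (horizontal axis, limma), by list; black bars are list medians and dashed lines the fold limit, 0.32 either way. Flvcr2 (orange, 0.54) is the 1 gene past the call rule, and Alas1 (1.23), Lcn2 (0.66) and Steap1 (-0.84) are among those beyond the dashed lines that did not pass it. Steap1 was low, with a mean value of 7.4 in 2afl/fl and 3.7 in L2aKO.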

How the data were processed

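Livers were profiled by bulk RNA-seq. Per the labels and the study's methods, the authors mapped reads to mm10 with STAR 2.7.8a in Partek Flow (version 10) and used DESeq2. The deposited values are a signal per gene that the authors scaled by a size factor per library (median ratio). Annotation, counting and strand settings are not given in the sources used here. With the step estimated for each library, 88.7 to 89.5% of values under 100 were whole multiples of it (within 0.02), too few for a count test.

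All 16650 genes (smallest mean 1.08) were fitted with limma 3.58.1 (R 4.3.3), trended and robust, on log2(value + 1), 4 livers against 4 with no covariates. Fold changes on that scale understate the change of low genes. The script was tested on simulated data. Exact permutation tests of single genes were added after the values were seen, except for Hamp. Relations used exact permutation of pairings (scipy 1.17.1). Members and lists were chosen with earlier results of these data known. The text names every member, the called genes of each list or otherwise the 2 of smallest p, the 5 genes most like Hamp and Tfrc, and Mfsd2a. Alternatives changed the pseudocount, filter, scaling, weights, test, call rule, replicate block or the livers used. Il6 and Ftmt had no value here and were not analysed.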

Additional observations from a re-analysis of the deposited data

Results flagged for a closer look

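In 40 groups of 4 livers (20 genes in each genotype), 3 had a liver whose distance to the nearest other exceeded Dixon's 95% critical value as a share of the range. Chance gives about 1 in 20. None of the 10 iron genes named at the start had such a liver. Flvcr2 in L2aKO replicate 4 was 258, with the others at 164 to 179. Slc39a14 in 2afl/fl replicate 4 was 8468, with the others at 7176 to 7352. Mfsd2a in 2afl/fl replicate 2 was 1569, with the others at 300 to 513. Alas1, chosen after its values were seen and so left out of these counts, also had such a liver, L2aKO replicate 4 at 13634, with the other L2aKO livers at 2173 to 3108.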

How the results depend on the processing

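Of 180 alternative fits of the 10 member genes, 166 kept the direction and the side of the call rule, 13 gave the opposite sign and 1 was called (Tfrc, without 2afl/fl replicate 2). With all livers used, the sign turned for Tfr2 under quantile normalization (0.00081) and for Hamp with library weights (-0.016). With 1 liver left out, the log2 differences ranged from -0.26 to 0.28 for Hamp, -0.034 to 0.016 for Tfr2, -0.15 to 0.052 for Hfe, -0.094 to 0.15 for Bmp6, 0.12 to 0.35 for Tfrc, 0.26 to 1.04 for Hamp2, 0.11 to 0.31 for Slc40a1, 0.028 to 0.15 for Trf, 0.00022 to 0.13 for Fth1 and 0.022 to 0.15 for Ftl1, and the members called from 0 to 1. The cause was not tested. The 349 calls over all genes became 229 with a mean of at least 10 (80 lower in L2aKO against 130), 581 with no fold limit and 0 by adjusted p, and 299 to 427 with 1 liver left out (84 to 191 of them lower). Quantile normalization gave Trf 0.22. The wider lists had 1 call, which became 2 with voom, 2 with no fold limit, 0 by adjusted p and 1 to 4 with 1 liver left out (4 without 2afl/fl replicate 4, 3 without L2aKO replicate 2). Deviations of livers with the same replicate number correlated at 0.0962, -0.37, -0.068 and 0.210. With 4 livers a genotype such values cannot decide whether the numbers pair the livers. With the replicate block 359 genes, 0 members and 2 genes of the wider lists were called, the added gene being Lcn2 (log2 difference 0.66), and 2 members, Tfrc and Slc40a1, had an unadjusted p under 0.05 with folds under the limit. Voom called Mfsd2a (1.01) and Alas1 (1.23). Hamp with Id1 passed the threshold without the farthest livers (r = 0.861, adjusted p = 0.0333), and Tfrc with Fth1 turned to -0.029 when centred and -0.67 without the farthest livers. With 4 livers a genotype, the intervals given for Hamp and Hamp2 were wide, and any fold within them remains possible.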
